A study of Arabidopsis thaliana with 12 samples.

Results

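The transcripts described here stood lower in mock-treated 35S:LOB-GR than in mock-treated Col seedlings, and lower again in 35S:LOB-GR seedlings that received the hormone dexamethasone (DEX). They were chosen by their measured values. A probe set was taken where the mean of the 35S:LOB-GR mock arrays lay at least 0.5 below that of the Col mock arrays and the mean of the 35S:LOB-GR DEX arrays at least 0.5 below that of the 35S:LOB-GR mock arrays, on the log2 scale, with no overlap between the arrays in either comparison. Of 22746 probe sets, 124 met these conditions. Leaving out 8 of them, which stand for the expansin, xyloglucan endotransglucosylase, GH3 and sugar-response genes EXPA8, EXLA1, XTH16, XTH19, WES1, ATL8 and AT2G30600 (the last with a pair of probe sets), gave 116 members. The platform annotation gives 1 gene for 51 of the members, which stand for 50 genes, several genes for 4 and none for 61. All of the 51 were found in the RefSeq gene table of assembly TAIR10.1, and 45 of them have only a locus name.

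LATERAL ORGAN BOUNDARIES (LOB) is a plant-specific transcription factor of the LOB-domain family, normally made at the base of lateral organs, where growth is slow. Joining a transcription factor to the steroid-binding part of the glucocorticoid receptor (GR) is a standard way to keep it in the cytoplasm until a steroid such as DEX releases it into the nucleus. Organ growth in seedlings depends on loosening of the cell wall and on auxin and brassinosteroid signalling, and brassinosteroids in turn are inactivated in organ boundaries with the help of LOB.

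The 4 groups were 35S:LOB-GR with DEX, 35S:LOB-GR with mock medium, Col with DEX and Col with mock medium, each with 3 arrays titled as biological replicates. All seedlings had the Col-0 background, were 9 days old and stood in liquid medium for 4 h, which held 5 µM DEX or none. The 35S promoter drives the fusion throughout the plant and not only at boundaries, and the labels do not say how many transgenic lines were used. The Col arrays carry no fusion, so the mock comparison of genotypes shows seedlings that hold the fusion without its ligand. Sowing and harvest dates are not labelled, so batch and genotype cannot be told apart in that comparison.

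Within a group, Pearson's r between arrays over all probe sets (features, not replicates) was 0.9922 or higher, and array medians ran from 5.88 to 5.97. The leaf marker RCA (Rubisco activase) stood between 13.61 and 13.82 and the root beta-glucosidase PYK10 between 12.28 and 12.75 in the group means, as whole seedlings with leaves and roots would have. Of the marker lists for cell types, 9 of 35 genes were measured, and in the 2 comparisons behind the members, SPCH of the guard cell lineage was the 1 marker called, at -0.43 for DEX in 35S:LOB-GR (limma adjusted p = 0.0306). In that comparison 5.99% of all probe sets were called lower. MUTE, CLV3 and LAS had means under 5 in every group, so a decrease could hardly be seen in them. PYK10 was called higher in 35S:LOB-GR with DEX than in Col with DEX (0.47, limma adjusted p = 0.00234). The part of these markers in the results was not tested. In whole seedlings, fewer cells of a type and less RNA per cell cannot be told apart.

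The median member had a log2 level of 6.20 in 35S:LOB-GR with DEX, 7.19 in 35S:LOB-GR with mock, 8.23 in Col with DEX and 8.13 in Col with mock. On single arrays, the median of the members' distances from their Col mock means was -1.63, -1.70 and -1.75 in 35S:LOB-GR with DEX, and -0.84, -0.75 and -0.68 in 35S:LOB-GR with mock. In Col it was -0.05, 0.04 and 0.01 with DEX and -0.00, -0.04 and 0.04 with mock. The DEX arrays of Col, which the choice of members did not use, thus lay beside the Col mock arrays and above the arrays of both 35S:LOB-GR groups in this summary.

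**Figure D1:**
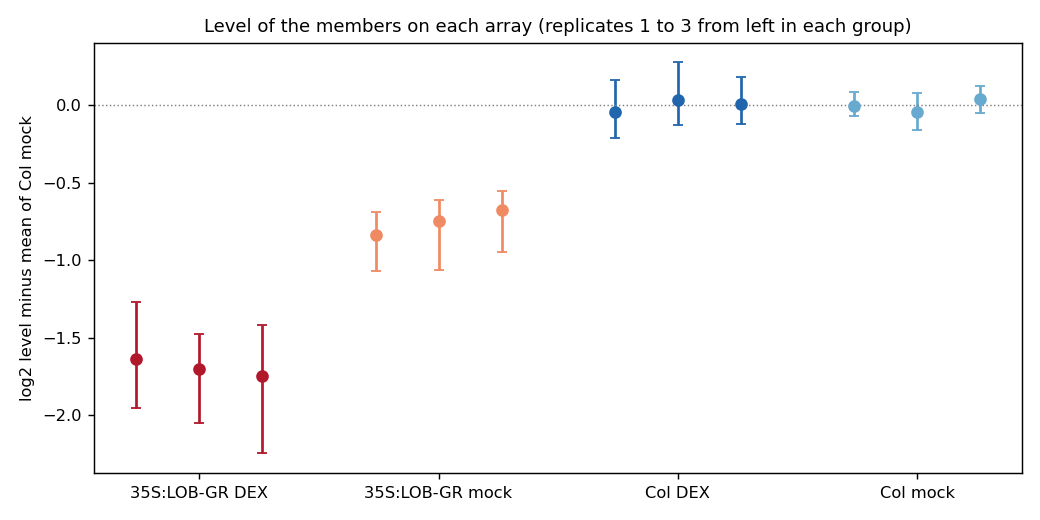
Median (point) and quartiles (bar) of the 116 members on each array, as log2 level minus the member's mean in Col mock, with replicates 1 to 3 from left in each group. The 35S:LOB-GR DEX arrays sit between -1.75 and -1.63, the 35S:LOB-GR mock arrays between -0.84 and -0.68, and all Col arrays within 0.05 of 0.

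The arrays of a group did not rank alike for all members. In 35S:LOB-GR with DEX, replicate 1 was the highest array for 71 of 116 members and replicate 3 the lowest for 56. In 35S:LOB-GR with mock, replicate 1 was the lowest for 56 and replicate 3 the highest for 61. The median member of 35S:LOB-GR DEX replicate 1 lay 0.14 above its group mean, beside 0.01 for the median of all probe sets on that array. Leaving that array out gives 139 members, which include 110 of the 116.

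AT5G62280, of the DUF1442 family, had the largest summed difference of all 116 members. It stood at 4.78, 4.49 and 4.14 (log2) in 35S:LOB-GR with DEX, at 6.76, 7.82 and 7.34 in 35S:LOB-GR with mock, at 8.58, 8.92 and 8.71 in Col with DEX and at 8.52, 7.94 and 8.55 in Col with mock. The 35S:LOB-GR DEX arrays are far below all others, and the mock arrays of that genotype differ by over 1 log2 unit among themselves. Its difference under mock was -1.02 ± 0.23 and its DEX difference in 35S:LOB-GR was -2.84 ± 0.23 (log2, SE of the limma fit), so 26.5% of the sum was present without DEX.

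AT4G34220 encodes a leucine-rich repeat receptor-like kinase, a membrane protein of the class that senses extracellular signals. Its arrays were at 6.06, 5.42 and 5.70 in 35S:LOB-GR with DEX and at 7.78, 7.82 and 7.97 in 35S:LOB-GR with mock. In Col they were at 8.21, 8.52 and 8.61 with DEX and at 8.50, 8.44 and 8.59 with mock. With 23.5% of its summed difference present under mock, the lowest share of all members, this kinase gene was lower mainly in the arrays with DEX.

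AT5G16030, whose function is not known, showed the opposite weighting. It had 6.57, 6.50 and 6.67 in 35S:LOB-GR with DEX, 7.44, 7.72 and 7.60 in 35S:LOB-GR with mock, 8.72, 9.08 and 8.98 in Col with DEX and 9.19, 9.68 and 9.19 in Col with mock. Its mock difference of -1.77 ± 0.13 was the largest among members with 1 gene, and its DEX difference was -1.01 ± 0.13.

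Lipid transfer protein-like genes encode small secreted proteins that carry lipids outside the cell. AT1G62510 of this class was the brightest of the first 8 members, at 9.92, 9.25 and 9.23 in 35S:LOB-GR with DEX and 10.25, 10.77 and 10.92 in 35S:LOB-GR with mock, against 12.24, 12.14 and 12.06 in Col with DEX and 12.14, 12.27 and 12.18 in Col with mock. AT5G48490, which resembles the defence-related lipid carrier DIR1, stood at 7.79, 7.71 and 7.42 in 35S:LOB-GR with DEX and at 8.48, 8.43 and 8.74 in 35S:LOB-GR with mock. In Col it stood at 9.68, 9.79 and 9.49 with DEX and at 10.15, 10.44 and 9.85 with mock. Both were farther below Col under mock (-1.55 and -1.60) than they dropped with DEX (-1.18 and -0.91). The Col DEX arrays of AT5G48490 also lay below its Col mock arrays without overlap (-0.49 ± 0.15, limma adjusted p = 0.171).

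AT1G75960, of the AMP-dependent synthetase and ligase family, stood at 4.23, 3.80 and 4.13 in 35S:LOB-GR with DEX and at 5.73, 5.50 and 5.54 in 35S:LOB-GR with mock. Its Col arrays were at 6.51, 6.46 and 6.37 with DEX and at 6.65, 6.66 and 6.39 with mock. AT3G13980, of unknown function, had 6.14, 5.67 and 5.24 in 35S:LOB-GR with DEX, 6.54, 6.62 and 6.94 in 35S:LOB-GR with mock, 8.39, 8.71 and 8.68 in Col with DEX and 8.25, 7.88 and 8.45 in Col with mock. The DEX level of AT1G75960 is near the low end of all values (2.71), and its DEX difference was -1.54 ± 0.12. Levels this low leave little room for a further decrease, which holds for all 25 members with a mean under 5 in 35S:LOB-GR with DEX, and no detection calls were used.

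AT4G18970, a GDSL-type esterase/lipase, is the last of the first 8. It had 7.37, 7.12 and 7.18 in 35S:LOB-GR with DEX, 8.47, 8.82 and 8.86 in 35S:LOB-GR with mock, 9.94, 9.89 and 9.97 in Col with DEX and 9.50, 9.44 and 9.80 in Col with mock. Its Col DEX arrays lay above all Col mock arrays (0.35 ± 0.12, limma adjusted p = 0.23), away from the direction seen in 35S:LOB-GR.

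**Figure D2:**
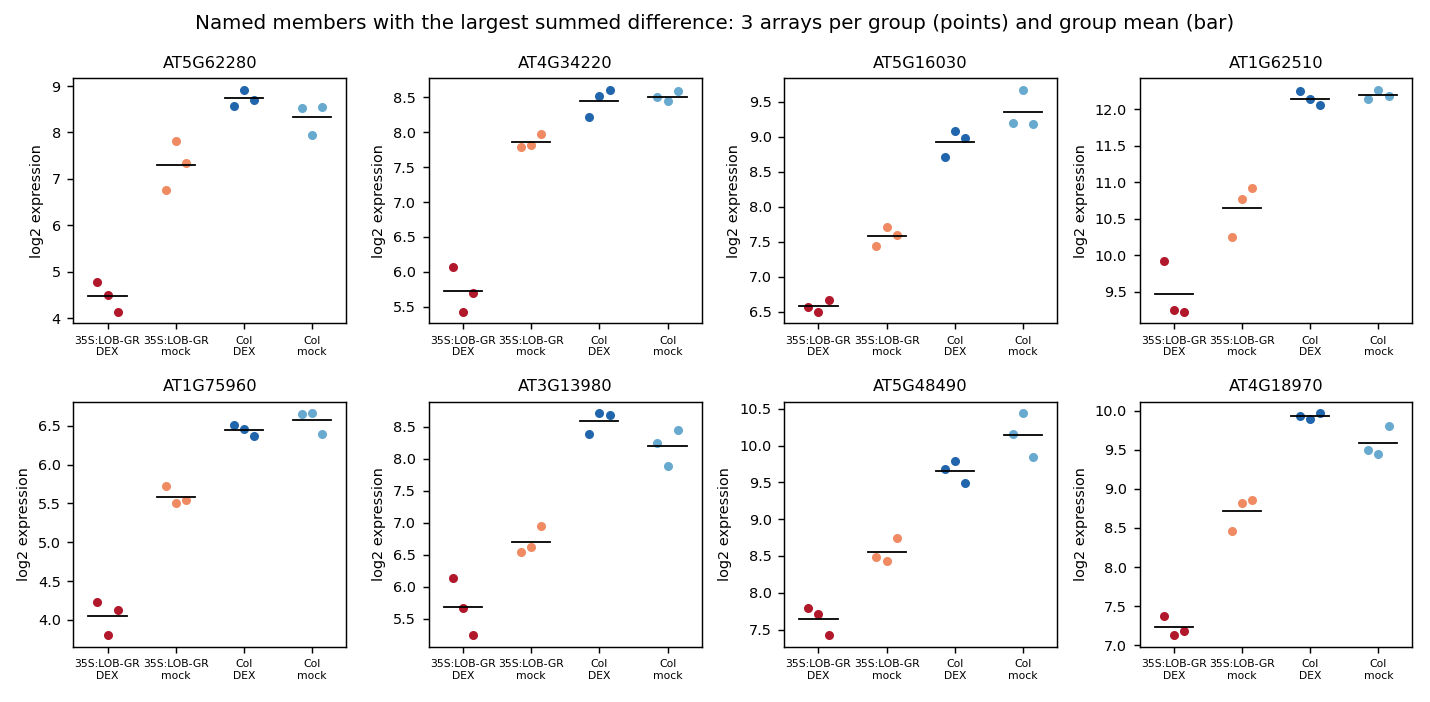
Log2 expression of the 8 one-gene members with the largest summed difference, by group (35S:LOB-GR DEX, 35S:LOB-GR mock, Col DEX, Col mock from left). Points are single arrays and bars are group means, and the vertical axes differ between panels and do not start at 0. In each panel the 35S:LOB-GR DEX arrays lie lowest and the 35S:LOB-GR mock arrays lie between them and both Col groups.

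Over all 116 members the mock difference between the genotypes ran from -2.49 to -0.50 with a median of -0.76, and the DEX difference in 35S:LOB-GR from -2.84 to -0.50 with a median of -0.88. The medians over all probe sets were 0.00 and 0.02. These values chose the members and are a description. Limma called 113 members lower under mock and 115 lower with DEX in 35S:LOB-GR at an adjusted p under 0.05, where 5.1% and 5.99% of all probe sets were called lower and 5.76% and 3.97% higher. Arrays did not overlap downwards for 13% and 11% of all probe sets. Nothing is read from these counts because the choice fixed them. The DEX difference was the larger one for 67 members and the mock difference for 49. A difference of at least 2-fold in both comparisons was present in 12 members, of which AT5G62280, AT5G16030, AT1G62510 and AT3G13980 have 1 gene.

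The share of the summed log2 difference that was present under mock had a median of 48.7% and ran from 23.5% to 77.1%. After AT4G34220 and AT5G62280, the lowest share with 1 gene was that of the protein kinase gene AT1G54820 (31.6%). The highest shares with 1 gene were those of AT5G59080 (70.4%) and AT2G15960 (68.1%), both of unknown function. AT5G59080 stood at 4.38 ± 0.20 in 35S:LOB-GR with DEX, 5.02 ± 0.16 in 35S:LOB-GR with mock, 6.50 ± 0.15 in Col with DEX and 6.55 ± 0.08 in Col with mock (SD, n = 3).

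**Figure D3:**
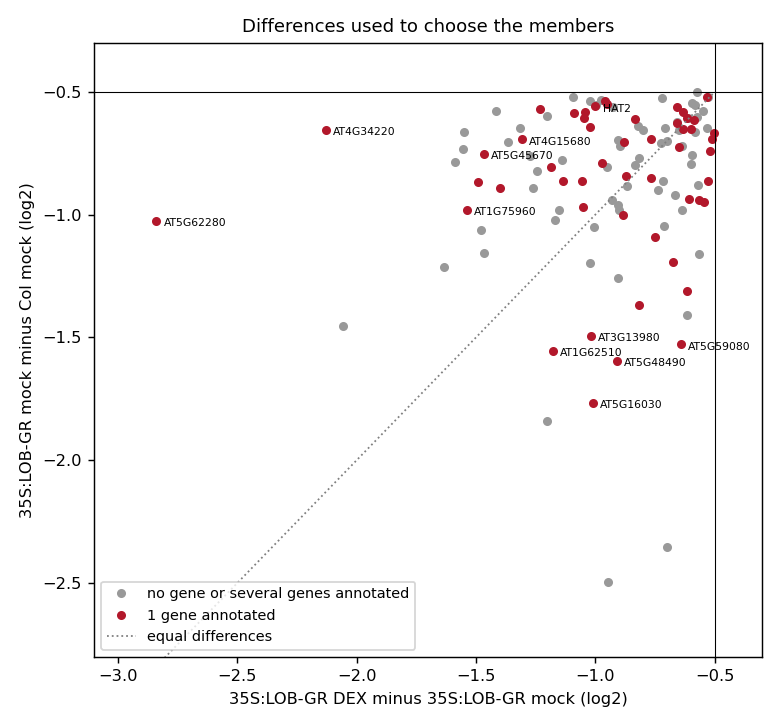
DEX difference in 35S:LOB-GR (horizontal) and genotype difference under mock (vertical), both in log2, for the 116 members, which were chosen on these values. Red points have 1 gene in the annotation, grey points none or several, solid lines mark the threshold of -0.5, and the dotted line marks equal differences. AT5G62280 and AT4G34220 lie far to the left, AT5G16030 and AT5G59080 low on the right.

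Close to the thresholds, members and others differed little. The sugar transporter gene SFP2 was inside with a DEX difference of -0.502, followed by AT4G33490 (-0.510) and AT3G53990 (-0.521), and ATERDJ3B (-0.491), AT5G44680 (-0.486) and the unnamed 261395_at (-0.483) were outside. For the mock difference the nearest inside were the unnamed probe sets 263490_at (-0.5003), 261975_at (-0.520) and 255433_at (-0.521). The nearest outside were 245956_s_at (-0.497), 264016_at (-0.495) and AT1G64370 (-0.494). A threshold of 0.4 would give 174 members and one of 0.6 would give 79.

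The 50 genes were put into role classes from general knowledge of Arabidopsis genes, after their values were known, since the gene table gives no product names. The 14 genes of other or unknown function, which include AT5G62280, form the largest class. Receptors and kinases number 5. CC-type glutaredoxins, secreted or wall proteins and enzymes of metabolism number 4 each, and GDSL lipases, transcription regulators and transporters 3 each.

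CC-type glutaredoxins are small thiol proteins found in land plants that bind TGA transcription factors, and some take part in flower development and nitrogen signalling. The 4 members of this class are AT4G15660, AT4G15680 and AT4G15690, which lie within a tandem row of such genes in TAIR10.1, and AT5G18600, which lies elsewhere. AT4G15680 stood at 7.06, 7.45 and 7.34 in 35S:LOB-GR with DEX and 8.91, 8.21 and 8.65 in 35S:LOB-GR with mock, against 9.08, 9.36 and 9.33 in Col with DEX and 9.13, 9.50 and 9.22 in Col with mock. AT5G18600 stood at 8.54, 8.31 and 8.30 in 35S:LOB-GR with DEX and 9.42, 9.17 and 9.62 in 35S:LOB-GR with mock, against 9.83, 9.93 and 10.03 in Col with DEX and 9.97, 10.18 and 9.99 in Col with mock.

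In the mock groups the replicates ranked partly alike. Mock replicate 2 of 35S:LOB-GR was the lowest of its group for all 4 genes, and mock replicate 2 of Col was the highest of its group for all 4. In Col with DEX, replicate 1 was the lowest of its group for all 4. The 35S:LOB-GR DEX group showed no such shared rank, as its replicate 1 was the lowest array for AT4G15680 and the highest for the other 3 genes. Under mock AT5G62280 ran the other way, with its highest 35S:LOB-GR mock value and its lowest Col mock value in replicate 2. AT4G15660 had 6.53, 6.21 and 6.67 and AT4G15690 had 7.88, 7.30 and 7.83 in 35S:LOB-GR with mock. The tandem genes resemble each other in sequence, so their probe sets may share signal, and the 4 are not independent of each other.

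In Col none of these genes was called in the response to DEX, with differences of 0.02 for AT4G15660, -0.03 for AT4G15680, -0.01 for AT4G15690 and -0.11 for AT5G18600 (limma adjusted p = 0.755 or higher). The next gene of the row, AT4G15700, missed the rule. It was at 4.85, 5.41 and 4.65 in 35S:LOB-GR with DEX and 5.63, 5.15 and 5.43 in 35S:LOB-GR with mock, so these arrays overlap, and at 6.25, 6.28 and 6.16 in Col with DEX and 6.41, 6.79 and 6.45 in Col with mock. Its mock difference of -1.15 ± 0.17 was larger than that of any of the 4 members of the class.

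**Figure D4:**
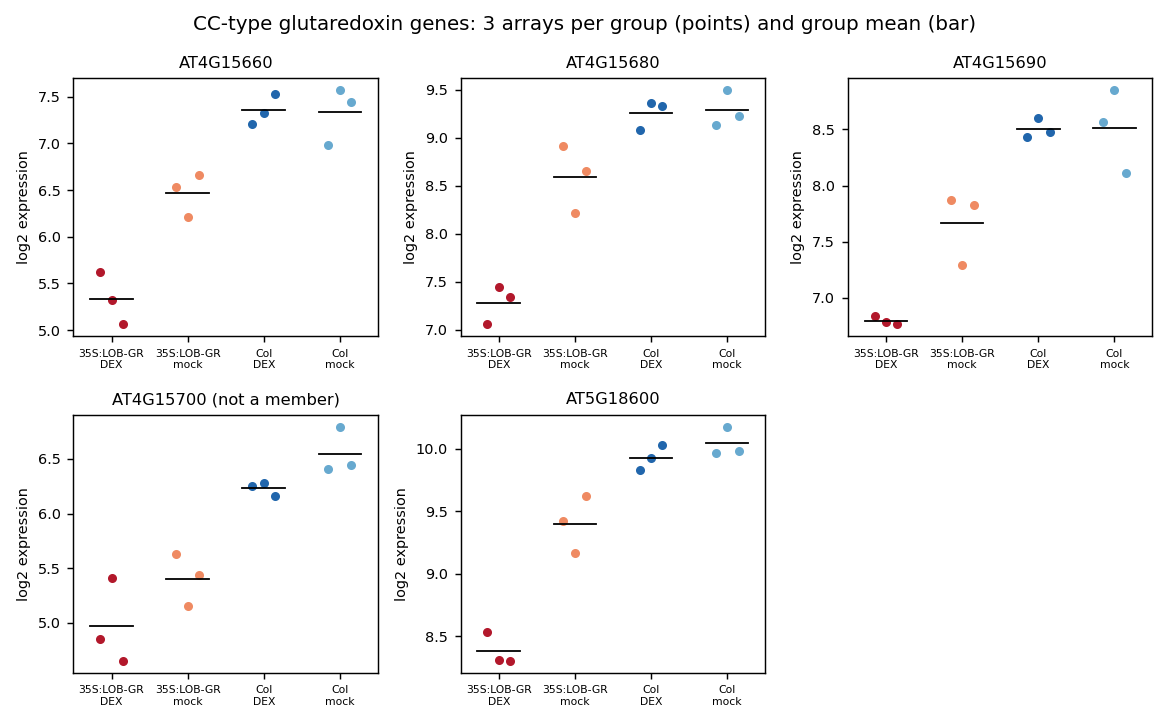
Log2 expression of 4 CC-type glutaredoxin members and of AT4G15700, which missed the rule, by group from 35S:LOB-GR DEX at left to Col mock at right. Points are arrays in the order of replicates 1 to 3, bars are group means, and the vertical axes differ between panels and do not start at 0. The middle 35S:LOB-GR mock point is the lowest and the middle Col mock point the highest of its group in all 5 panels.

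Of 19 CC-type glutaredoxin genes, a list made after the values were seen, 15 were measured. Under mock 7 were called lower in 35S:LOB-GR and none higher, and with DEX 6 were called lower in 35S:LOB-GR and none higher, where 5.1% and 5.99% of all probe sets were called lower. In each count 4 are members, which these differences chose. Besides the members and AT4G15700, AT3G62950 (-0.90) and AT5G14070 (ROXY2, a flower development gene, -0.56) were called lower under mock, and AT2G30540 (-0.61) and AT1G06830 (-0.55) with DEX. The first 2 of these genes were dim. AT3G62950 stood at 3.67 in 35S:LOB-GR with mock and 4.57 in Col with mock, and AT5G14070 at 4.69 and 5.25. The medians of the list were -0.36 under mock and -0.31 with DEX, beside medians over all probe sets of 0.00 and 0.02. These medians include the 4 chosen members, which pull them down, so they are a description and no measure of the family. AT1G28480 (GRX480, a defence gene) was at 0.08 and 0.14, neither called.

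GDSL-type esterases/lipases are secreted hydrolases, some of which act on cutin or suberin. Besides AT4G18970, AT5G45670 stood at 7.25 ± 0.16 in 35S:LOB-GR with DEX, 8.72 ± 0.07 in 35S:LOB-GR with mock, 9.39 ± 0.05 in Col with DEX and 9.47 ± 0.11 in Col with mock (SD, n = 3). AT1G75900 stood at 7.84 ± 0.32 in 35S:LOB-GR with DEX, 8.89 ± 0.24 in 35S:LOB-GR with mock, 9.46 ± 0.08 in Col with DEX and 9.49 ± 0.04 in Col with mock. In all 3 genes the DEX difference in 35S:LOB-GR exceeded the mock difference, with class medians of -1.47 and -0.75. The measured neighbours AT1G75880, AT1G75890 and AT1G75920 of AT1G75900 had mock differences of 0.08, 0.12 and 0.13 and DEX differences in 35S:LOB-GR of -0.47, 0.08 and -0.09.

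Wall genes among the members act on pectin, the gel-forming polymer of the primary wall. The pectate lyase-like gene AT5G48900 stood at 7.06 ± 0.29 in 35S:LOB-GR with DEX, 8.25 ± 0.17 in 35S:LOB-GR with mock, 9.20 ± 0.10 in Col with DEX and 9.06 ± 0.18 in Col with mock (SD, n = 3). AT4G25260, a pectin methylesterase inhibitor, stood at 7.33 ± 0.13 in 35S:LOB-GR with DEX, 8.22 ± 0.13 in 35S:LOB-GR with mock, 9.58 ± 0.11 in Col with DEX and 9.22 ± 0.06 in Col with mock. Its Col DEX arrays (9.69, 9.56 and 9.48) lay above its Col mock arrays (9.27, 9.16 and 9.24), a difference of 0.35 ± 0.10 that was not called (limma adjusted p = 0.142).

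A list of 17 wall genes had 6 measured by a probe set with 1 gene, and none of these 6 is among the members. EXPA8, XTH16 and XTH19 met the rule on these values and were left out by name. Under mock 4 of the 6 were called lower in 35S:LOB-GR and 1 higher, and 5 were called lower with DEX in 35S:LOB-GR, where 5.1% of all probe sets were called lower and 5.76% higher under mock and 5.99% lower with DEX. Both lower counts include EXPA8, XTH16 and XTH19, whose values under the rule largely fixed their calls. These counts are therefore a description and no measure of wall genes. The higher one was PME41, a pectin methylesterase, at 0.85 ± 0.26 under mock, and it was among the lower ones with DEX (-2.96 ± 0.26). COB, which orients cellulose deposition, was at -0.31 and -0.29, neither called. XTH20 (-0.33 under mock) missed the first threshold, and its name would have left it out in any case.

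Transcription regulators among the members include HAT2, an auxin-induced class II homeodomain-leucine zipper factor of shade and elongation responses. It stood at 6.64, 6.83 and 6.68 in 35S:LOB-GR with DEX and at 7.54, 7.81 and 7.80 in 35S:LOB-GR with mock, against 8.32, 8.54 and 8.65 in Col with DEX and 8.26, 8.08 and 8.49 in Col with mock. The groups of 35S:LOB-GR are apart from each other and from Col, and the Col groups overlap. BZIP61, a basic leucine zipper factor, stood at 6.18 ± 0.17 in 35S:LOB-GR with DEX, 7.58 ± 0.33 in 35S:LOB-GR with mock, 8.75 ± 0.11 in Col with DEX and 8.47 ± 0.23 in Col with mock (SD, n = 3). The zinc finger gene AT5G54630 weighed toward the mock difference, at -0.94 ± 0.10 beside -0.61 ± 0.10 with DEX.

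Of the auxin list, 6 of 31 genes were measured, and HAT2 is the 1 member among these 6. IAA29, an auxin-inducible repressor, was called lower under mock (-1.49 ± 0.14) and was at -0.33 with DEX in 35S:LOB-GR (limma adjusted p = 0.192). The mean of IAA29 was already 4.63 in 35S:LOB-GR with mock, which leaves little room for a further decrease. IAA20, IAA30, LBD16 and LBD29 were called in neither comparison. IAA20, IAA30 and LBD29 had means under 5 in every group, so a decrease could hardly be seen in them. Of the brassinosteroid list 2 of 21 genes were measured, the receptor gene BRL1 and the inactivating acyltransferase gene BAT1, and neither was called under mock. With DEX in 35S:LOB-GR both were called higher (1.29 and 0.77), where 3.97% of all probe sets were. None of 19 shade and PIF genes was measured by a probe set with 1 gene.

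Of 17 genes of sugar starvation and darkness 4 were measured, all called lower under mock, where 5.1% of all probe sets were. The DEX difference was called lower for ATL8 and AT2G30600, where 5.99% were, and these 2 met the rule on both differences and were left out by name. Those values largely fixed the calls of these 2 genes in both comparisons, so the counts are a description. AT3G15450 was at -2.31 under mock and at 0.47 with DEX (limma adjusted p = 0.179). AKINBETA1, a subunit of the energy-sensing kinase SnRK1, was at -0.68 and 0.01. Of 14 clock genes 3 were measured, and under mock 1 was called lower and 2 higher. GI was at -2.65 under mock and -0.19 with DEX in 35S:LOB-GR (limma adjusted p = 0.699). COR27 and COR28 were at 1.79 and 0.72 under mock and at -0.10 and 0.11 with DEX. None of these 3 clock genes is a member, and the listed clock genes without a probe set of their own could not be checked.

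Among receptors and kinases, AT1G54820 stood at 5.13 ± 0.24 in 35S:LOB-GR with DEX, 6.36 ± 0.13 in 35S:LOB-GR with mock, 7.00 ± 0.02 in Col with DEX and 6.93 ± 0.17 in Col with mock (SD, n = 3). The Raf-like kinase AT3G01490 had differences of -0.62 under mock and -0.58 with DEX, and the leucine-rich repeat gene AT2G34930 had -0.56 and -0.66. A further Raf-like kinase, AT2G31010, had -0.58 and -0.63. A second probe set of AT2G31010 did not follow, with 0.25 under mock and -0.32 with DEX, so this gene is uncertain. AT1G22330, an RNA-binding protein gene, is the other gene with several probe sets, and both of its probe sets are members (-0.95 and -0.52 under mock, -0.55 and -0.53 with DEX).

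Transporters among the members are CHX16, a cation/H+ exchanger gene, and a pair of genes of the ERD6-like monosaccharide transporter family, AT1G19450 and SFP2. AT1G19450 stood at 8.41 ± 0.08 in 35S:LOB-GR with DEX, 9.50 ± 0.11 in 35S:LOB-GR with mock, 9.88 ± 0.04 in Col with DEX and 10.08 ± 0.13 in Col with mock (SD, n = 3). SFP1, the direct neighbour of SFP2, was at 0.19 under mock and 0.29 with DEX, beside -0.67 and -0.50 for SFP2. Around the member genes, 97 non-member genes within 2 positions were measured, with medians of -0.03 under mock and -0.02 with DEX. Of these, 3 were at -0.5 or lower under mock, 8 with DEX and 0 in both. The 0 was largely fixed in advance. A neighbour at -0.5 or lower in both is a member unless its arrays overlap or its name was left out. The share of all probe sets at these levels is not given here, so nothing is read from the counts. AT4G23820, near 3xHMG-box2, came closest to both thresholds (-0.46 and -0.66), followed by AT4G15700 (-1.15 and -0.43) and by AT1G62500 beside AT1G62510 (-0.42 and -1.68).

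Enzymes of metabolism included AT1G25230, a purple acid phosphatase (-0.86 under mock and -1.06 with DEX), AT5G02540, a short-chain dehydrogenase-like gene (-1.19 and -0.68), and AT5G43440, a 2-oxoglutarate-dependent dioxygenase (-0.94 and -0.56). AT5G02540 varied widely in 35S:LOB-GR with mock, at 7.42, 8.51 and 7.87, so its lowest mock array nearly reached its highest DEX array of 7.30. Among genes of protein folding and turnover, the HSP70-type chaperone gene AT4G16660 had -0.58 and -1.04, AT2G47440 with a tetratricopeptide repeat had -0.61 and -0.84, the serine carboxypeptidase gene AT5G22860 had -0.55 and -0.95, and the aspartyl protease gene AT4G33490 had -0.69 and -0.51. AT1G72160, a patellin of membrane traffic, had -0.63 and -0.66, and the universal stress protein gene AT3G53990 had -0.74 and -0.52.

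Genes of unknown function also included AT1G19530 (-1.37 under mock and -0.82 with DEX), AT1G12845 (-1.09 and -0.75), AT3G42800 (-0.85 and -0.77), AT1G26920 (-0.69 and -0.77) and AT1G11850 (-0.54 and -0.96). The remaining 5 were AT5G01015, AT1G10140, AT3G14760, AT2G44230 and the already named AT2G15960, with summed differences between -1.93 and -1.23. The 65 members with no gene or several genes were as widely spread as the named ones. The unnamed 252965_at stood at 5.62, 5.23 and 5.02 in 35S:LOB-GR with DEX, 7.12, 7.44 and 7.48 in 35S:LOB-GR with mock, 8.65, 8.97 and 8.81 in Col with DEX and 8.71, 8.75 and 8.93 in Col with mock. The unnamed 253161_at had the largest mock difference of all members (-2.49 ± 0.17). Probe sets of a kind that can match several transcripts (_s_at or _x_at) number 6 among the members.

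The response of Col to DEX asks whether the hormone itself lowered these transcripts. Its DEX arrays were not used to choose the members, but its mock arrays were, and members were chosen to be high there, which favours negative values. The difference ran from -0.82 to 0.77 with a median of 0.01, the same as the 0.01 over all probe sets, and was below 0 for 57 members and above 0 for 59. A difference within 0.5 of 0 was measured for 103 members, 7 were at -0.5 or lower and 6 at 0.5 or higher. Limma called 1 member, CHX16, which was lower, where 0.044% of all probe sets were called lower and 0.0132% higher. At an unadjusted p under 0.05 there were 34 members (29.3%), 21 lower and 13 higher, beside 12.7% of all probe sets (7.22% lower and 5.46% higher). All Col DEX arrays lay below all Col mock arrays for 19 members and above them for 20, where 10.6% and 10.3% of all probe sets did so.

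CHX16 stood at 4.81, 5.03 and 4.75 in 35S:LOB-GR with DEX and 5.82, 5.93 and 5.75 in 35S:LOB-GR with mock, against 5.89, 5.87 and 5.96 in Col with DEX and 6.83, 6.64 and 6.39 in Col with mock. Col seedlings given DEX were thus at the level of mock-treated 35S:LOB-GR seedlings. It fell with DEX in Col by 0.71 ± 0.11 (limma adjusted p = 0.0325). The call ended when any 1 Col array other than mock replicate 3 was left out, with adjusted p between 0.0978 and 0.178.

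LTI30, a dehydrin of cold and drought responses, and 3xHMG-box2, a chromosome protein of dividing cells, had the most negative Col values, at -0.82 each, neither called (limma adjusted p = 0.103 and 0.0966). LTI30 stood at 5.58, 5.55 and 5.42 in 35S:LOB-GR with DEX, 6.80, 5.84 and 6.54 in 35S:LOB-GR with mock, 6.04, 6.39 and 6.40 in Col with DEX and 7.06, 7.35 and 6.88 in Col with mock. 3xHMG-box2 stood at 5.81, 6.19 and 6.67 in 35S:LOB-GR with DEX, 6.78, 6.87 and 6.90 in 35S:LOB-GR with mock, 6.34, 6.86 and 6.87 in Col with DEX and 7.50, 7.72 and 7.30 in Col with mock. For both genes DEX and mock arrays were apart in each genotype, and their DEX differences in 35S:LOB-GR (-0.88 and -0.63) were close to those in Col. The unnamed 247252_at (-0.65), 263216_s_at, which stands for several genes (-0.64), AT1G18810, a phytochrome kinase substrate-related gene of light signalling (-0.63), and AT4G16660 (-0.50) came next, none called.

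At the other end stood the unnamed 265248_at (0.77 ± 0.14, limma adjusted p = 0.0579), AT5G02540 (0.71 ± 0.22, limma adjusted p = 0.182) and the unnamed 245325_at (0.69) and 261975_at (0.57). AT5G02540 was at 9.88, 9.87 and 9.76 in Col with DEX and at 9.31, 8.67 and 9.40 in Col with mock, so DEX lay above mock in Col and below it in 35S:LOB-GR. AT5G62280 and AT3G13980 were at 0.40 each in Col, and HAT2 was at 0.23, none called.

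**Figure D5:**
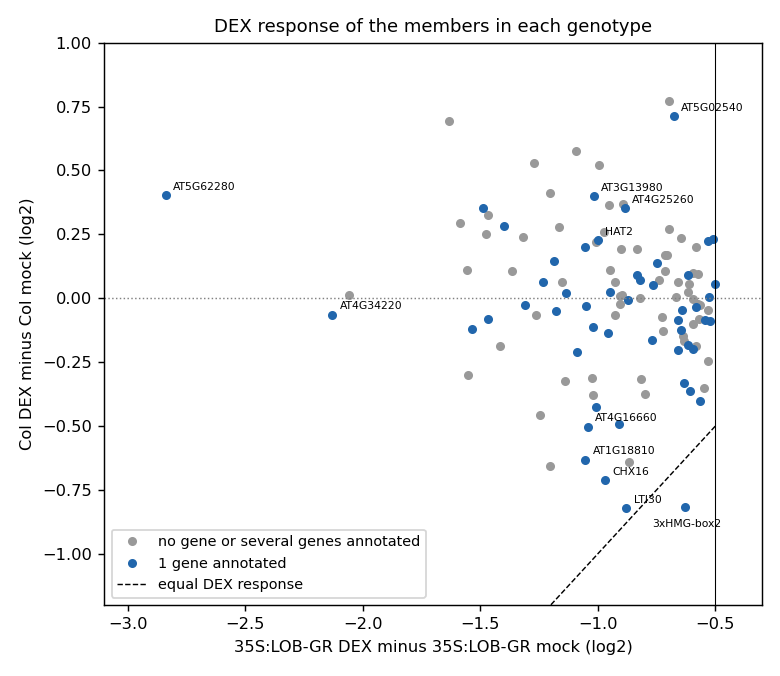
DEX minus mock in 35S:LOB-GR (horizontal, used to choose the members) and in Col (vertical), both in log2, for the 116 members. Blue points have 1 gene in the annotation and grey points none or several, the dashed line marks equal responses, and the solid line marks the threshold of -0.5. Most members lie within 0.5 of 0 in Col, and LTI30, 3xHMG-box2 and CHX16 lie closest to the dashed line among the named genes at -0.5 or lower in Col.

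Under DEX the genotypes were compared with Col arrays that had no part in the choice, although the 35S:LOB-GR DEX arrays had. All 116 members were lower in 35S:LOB-GR, with a median difference of -1.65 and a range from -4.27 to -0.47, and a median over all probe sets of 0.02. All 35S:LOB-GR DEX arrays lay below all Col DEX arrays for 115 members, where 15.3% of all probe sets did so, and limma called 115 lower, where 9.74% were called lower. The rule had placed the 35S:LOB-GR DEX arrays below Col mock, and the median member differed little between Col DEX and Col mock. Both counts were thus largely fixed in advance and are a description. The exception in both counts was 3xHMG-box2, with a difference of -0.47 ± 0.18. The largest named differences were those of AT5G62280 (-4.27 ± 0.23), AT3G13980 (-2.91 ± 0.19) and AT4G34220 (-2.72 ± 0.14). LTI30, at -0.76 ± 0.19, was among the smallest.

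The difference of the DEX responses (35S:LOB-GR minus Col) includes the DEX difference that chose the members, so its counts are a description. Its median was -0.84, beside 0.01 over all probe sets, and limma called 74 of 116 members lower and none higher, where 2.95% of all probe sets were called lower and 1.82% higher. Members not called included CHX16 (-0.26 ± 0.16), LTI30 (-0.06 ± 0.27), AT1G18810 (-0.42 ± 0.23), AT5G48490 (-0.42 ± 0.21) and AT5G16030 (-0.58 ± 0.19), for which the fit does not show that the responses were alike. 3xHMG-box2 was the 1 named member with a value above 0 (0.19 ± 0.26).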

How the data were processed

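Whole 9-day-old seedlings were profiled on 12 Affymetrix arrays, 3 in each of 4 groups. The deposited values are log2 expression per probe set. Per the submitters' processing notes the authors used RMA, for which no version is stated in the labels. This method sets the arrays to a common distribution, so a shift shared by all transcripts would not be seen. The 64 control probe sets were left out. Probe sets were named through the platform annotation, in which 13513 have 1 gene, 503 several and 8730 none. Of the probe sets with 1 gene, 13436 matched RefSeq TAIR10.1.

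All 22746 probe sets were fitted in 1 model with limma 3.58.1 (R 4.3.3), 4 group means, empirical Bayes and Benjamini-Hochberg adjustment, with a threshold of 0.05. The fit was tested on simulated data. P-values set a group difference against the spread between arrays within the groups, and they cannot separate batch from genotype. The members and lists were chosen with earlier results of these data known, and no p is given for single members in the comparisons that chose them. Genes were named by rank of the summed difference (the first 25, with the first 8 in every array), with further genes of each role class, the gene lists and the Col response. Role classes were assigned by hand after the values were known. A listed gene counts as measured where a probe set with 1 gene stands for it. Whether further listed genes are among the members with no gene or several genes is not known. Promoter motifs were not analysed here.

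Replicate numbers are shared between groups. The correlation of same-numbered arrays' deviations ran from -0.23 to 0.19 with a median of 0.02, so the numbers were not taken as pairs. For arrays with different numbers it ran from -0.27 to 0.34 with a median of -0.02. Whether arrays belong together under other numbers is not labelled and was not tested. Alternatives were other scalings, a filter on mean level over 5, a trended and robust prior, array weights, a replicate block, only the 6 arrays compared, a threshold of 0.01, each array left out, and other settings of the rule.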

Additional observations from a re-analysis of the deposited data

Results flagged for a closer look

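The response to DEX differed between 35S:LOB-GR and Col for 74 members by the interaction term of the limma fit. That term includes the DEX difference by which the members were chosen, so it is given as a description. Among the genes named, the difference of responses (35S:LOB-GR minus Col, log2) was -3.24 for AT5G62280, -2.06 for AT4G34220, -1.84 for AT4G18970 and -1.68 for BZIP61. It was -1.42 for AT3G13980, -1.41 for AT1G75960, -1.39 for AT5G45670 and -1.39 for AT5G02540. The wall genes AT5G48900 and AT4G25260 had -1.33 and -1.24, the kinase gene AT1G54820 -1.30 and the phosphatase gene AT1G25230 -1.25. The glutaredoxin genes AT4G15680, AT4G15660 and AT4G15690 had -1.28, -1.15 and -0.86. AT1G62510 had -1.13, AT1G12845 -0.89 and AT1G19450 -0.88.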

How the results depend on the processing

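With 3 arrays a group, the count of members called in the Col response to DEX was the least stable result. It was 1 as reported, 2 with each array's median subtracted, 3 with a filter on mean level over 5, 3 with a trended and robust prior, 10 with array weights, 15 when only the 6 Col arrays were fitted and 0 at an adjusted p under 0.01. Leaving out each array gave 0 to 7, with 7 without 35S:LOB-GR DEX replicate 1. Among the 91 members with a mean of at least 5 in every group, an alternative chosen after seeing the data, it was 0, since CHX16 is dimmer in 35S:LOB-GR with DEX. The median of that response stayed between -0.02 and 0.03 when arrays were left out. The cause of these changes was not tested.

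The median difference between the genotypes under DEX was -1.72 with array weights, beside -1.65, and -1.70 to -1.62 with arrays left out, with 115 to 116 members called. The count for the difference of responses was 49 at an adjusted p under 0.01, beside 74, and 61 to 81 with arrays left out. The median DEX difference in 35S:LOB-GR was -0.93 to -0.82 and the median mock difference -0.79 to -0.71 with arrays left out. No result reversed. The rule itself gave 104 members with medians subtracted (103 shared with the 116), 119 after quantile normalization (113 shared) and 112 to 139 with arrays left out. AT4G15690 was near the threshold, and its difference of responses was not called in 12 alternatives.

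With the replicate number as a block, 1 member was called in the Col response, 115 between the genotypes under DEX and 71 for the difference of responses. The labels do not say that a replicate number marks anything shared between groups. Levels under about 5 have no detection calls here, and 61 members remain without a gene name.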
